A study of Mus musculus with 9 samples.

Results

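The genes described here are 6 enzymes that make, reactivate or inactivate steroids in the kidney (*Cyp7b1*, *Hsd11b1*, *Hsd11b2*, *Hsd17b11*, *Akr1c21* and *Srd5a1*) and 3 hormone receptors (*Esr1*, *Prlr* and *Ghr*). They were chosen by name with earlier results of these arrays known, and where a symbol had several probe sets, the one whose mean over the 9 arrays was highest was to stand for it. Of the 9 genes, 7 had a probe set under their symbol, in each case just 1, and they are 7 of 22180 genes measured. *Srd5a1*, which reduces testosterone to dihydrotestosterone, and *Prlr*, the prolactin receptor, are not analysed here. Because the genes were chosen with results known, the calls and p-values below describe the fit and are no independent evidence that steroid genes differ between the groups.

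Kidney RNA of male mice was measured on 9 Affymetrix MoGene-2_0-st arrays, 3 per group, each labelled as a biological replicate. The groups were *db/m* mice given vehicle, Diabetic *db/db* mice given vehicle (vehicle *db/db* below), and *db/db* mice given irbesartan (irbesartan *db/db*; spelled irbsartan in the labels), a blocker of the angiotensin II type 1 receptor. Treatment lasted 12 weeks and began at 10 weeks of age per the design text. The methods give another starting age, renal cortex as the tissue and another Affymetrix array. *db/db* mice carry a mutation of the leptin receptor gene on both copies and become obese and diabetic, and *db/m* mice carry 1 normal copy. All values are log2 signals after RMA (robust multi-array average, which corrects for background, makes the arrays alike and gives 1 value per probe set), so a difference of 1 is a doubling. A probe's binding differs between genes, and levels are therefore compared only within a gene. The number of arrays limits the precision of every value.

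Steroid signals in a tissue depend on the hormone delivered by blood and on enzymes in the target cell that activate or destroy it before it meets its receptor. Kidney is a classic case: the enzyme encoded by *Hsd11b2* inactivates corticosterone in the distal nephron, which leaves the mineralocorticoid receptor to aldosterone, and the enzyme encoded by *Hsd11b1* does the reverse. The mouse kidney is also a strongly sex-dimorphic organ, in which androgens acting in the proximal tubule raise or lower many transporters and enzymes, and growth hormone acts through its receptor, the kinase JAK2 and the STAT5 proteins.

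In *db/db* kidneys 3 of the 7 genes, *Cyp7b1*, *Esr1* and *Hsd17b11*, were called lower than in *db/m* kidneys, and none was called higher. Called means that the log2 difference was above 0.5 in size and that p, adjusted by Benjamini-Hochberg across the 22180 genes of a limma fit of all 9 arrays, was under 0.25. Over all genes 0.987% were called lower and 1.31% higher in this comparison. In irbesartan *db/db* kidneys 4 of the 7 were called lower than in *db/m* kidneys, the same 3 and *Hsd11b1*, and none higher, against 1.96% and 1.93% of all genes. Between irbesartan and vehicle *db/db* kidneys 0 of the 7 were called, against 0.428% of all genes called lower and 0.577% called higher. At an unadjusted p under 0.05 in limma, 4, 1 and 5 of the 7 passed in *db/db* against *db/m*, irbesartan against vehicle *db/db*, and irbesartan *db/db* against *db/m* kidneys. Of all 22180 genes, 2890, 2712 and 3778 passed in that order. The median difference of the 7 was -0.41, 0.03 and -0.50 in that order, whereas the median of all genes was 0.005, -0.01 and -0.001. Each pair of comparisons shares 3 arrays, so the results are not independent of each other. RNA of bulk kidney tissue was measured, and fewer cells of a type and less RNA per cell cannot be told apart.

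**Figure D1:**
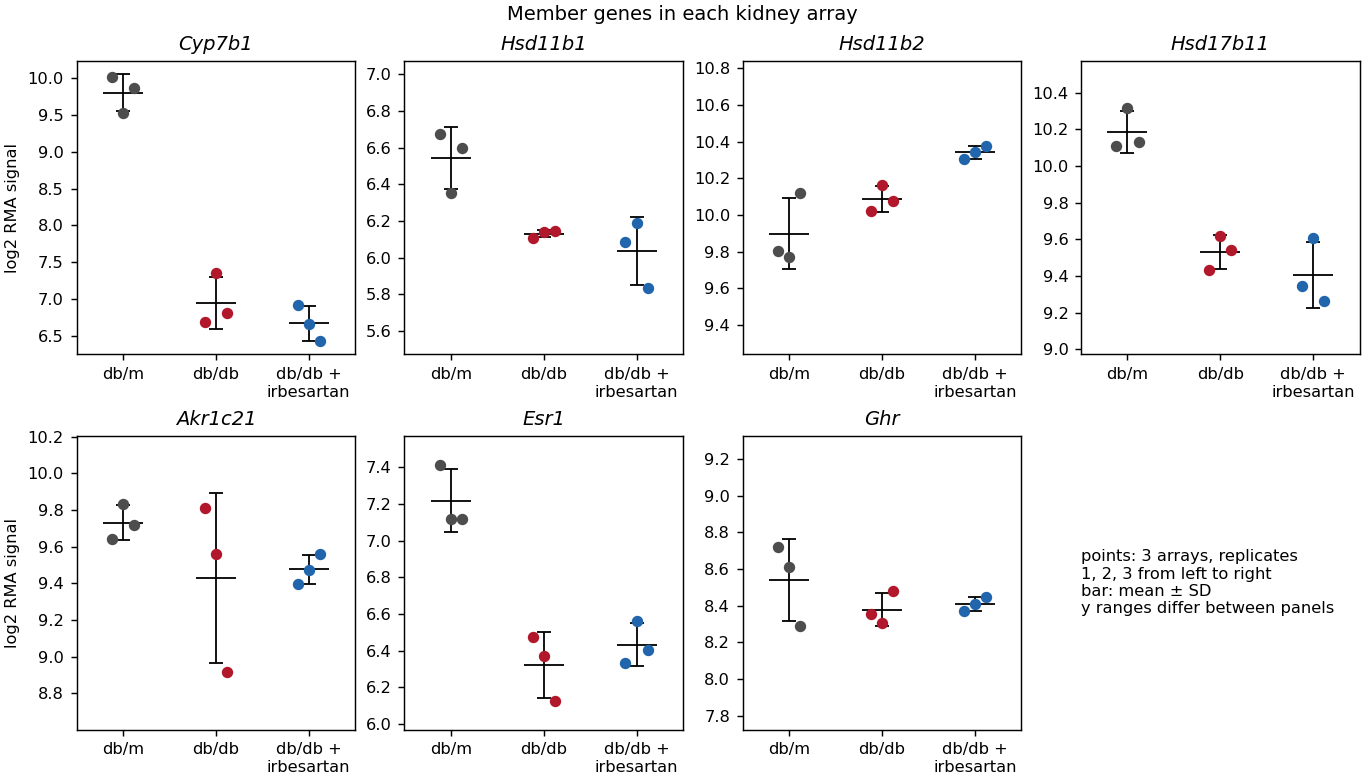
Log2 RMA signal of the 7 genes on each array, by group (*db/m*, *db/db*, *db/db* + irbesartan), with the mean and SD of 3 arrays; the range of the vertical axis differs between panels. *Cyp7b1*, *Hsd11b1*, *Hsd17b11* and *Esr1* lie lower on all 6 *db/db* arrays than on any *db/m* array, *Hsd11b2* lies highest on the 3 irbesartan arrays, and *Akr1c21* has 1 low *db/db* array.

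*Cyp7b1* encodes a cytochrome P450 that hydroxylates oxysterols on the way to bile acids and also hydroxylates dehydroepiandrosterone and related androgen metabolites. It was at 10.01, 9.53 and 9.87 in the 3 *db/m* kidneys. In vehicle *db/db* kidneys it was at 6.69, 7.35 and 6.81, and in irbesartan *db/db* kidneys at 6.92, 6.66 and 6.44. The lowest *db/m* array thus stood more than 2 log2 units above the highest of the 6 *db/db* arrays, and the irbesartan and vehicle arrays overlapped. The group means were 9.80 ± 0.25, 6.95 ± 0.35 and 6.67 ± 0.24 (SD, n = 3 each). *Cyp7b1* was 7.22-fold lower in vehicle *db/db* than in *db/m* kidneys (95% interval 5.41 to 9.63-fold, log2 difference -2.85, SE 0.19, limma adjusted p = 7.4e-05), the rank 3 gene by p in this comparison. In irbesartan *db/db* kidneys it was 8.75-fold lower than in *db/m* (95% interval 6.56 to 11.7-fold, limma adjusted p = 2.8e-05). Irbesartan and vehicle *db/db* kidneys differed by -0.28, irbesartan minus vehicle (95% interval -0.69 to 0.14, limma adjusted p = 0.589). *Zbtb16*, the one gene of this text found in the fold change listing of the published study, has the opposite sign there to irbesartan minus vehicle as computed here.

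Of the 2 enzymes that interconvert active and inactive glucocorticoid, *Hsd11b1* lay below the *db/m* arrays in both *db/db* groups and *Hsd11b2* lay above them in the irbesartan group. *Hsd11b1*, the reductase that regenerates corticosterone, was at 6.68, 6.35 and 6.60 in *db/m* kidneys. It was at 6.11, 6.14 and 6.14 in vehicle and at 6.09, 6.19 and 5.83 in irbesartan *db/db* kidneys. All 6 *db/db* arrays lay below all *db/m* arrays. Groups that do not overlap are common with 3 arrays each: 16.8% of all genes did not overlap between *db/db* and *db/m*, and 4 of the 7 genes did not, all lower in *db/db*. The *Hsd11b1* difference of -0.41 (SE 0.12, limma adjusted p = 0.151) for vehicle *db/db* minus *db/m* missed the fold limit, and passed it without *db/m* replicate 2 (-0.51). For irbesartan *db/db* minus *db/m* it was -0.50 (SE 0.12, limma adjusted p = 0.0448) and was called. That call sat on the fold limit and was lost without *db/m* replicate 1 (-0.44), *db/m* replicate 3 (-0.48) or irbesartan replicate 3 (-0.40). Irbesartan minus vehicle *db/db* was -0.09 (95% interval -0.35 to 0.16, limma adjusted p = 0.793).

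*Hsd11b2*, the dehydrogenase of the distal nephron, was at 9.80, 9.77 and 10.12 in *db/m*, at 10.02, 10.16 and 10.08 in vehicle *db/db* and at 10.31, 10.34 and 10.37 in irbesartan *db/db* kidneys. The irbesartan arrays lay above all 6 others, and the vehicle *db/db* arrays overlapped with *db/m*. It was the single gene of the 7 that did not overlap between irbesartan and vehicle *db/db* kidneys, where 21.8% of all genes did not. The difference of 0.25, irbesartan minus vehicle (SE 0.11, 95% interval 0.02 to 0.49, limma adjusted p = 0.375), was not called. Against *db/m* kidneys the irbesartan group was 0.44 higher (SE 0.11, 95% interval 0.21 to 0.68, limma adjusted p = 0.0503), below the fold limit, and 0.56 higher without *db/m* replicate 3, which would be called. The vehicle group was 0.19 above *db/m* (95% interval -0.05 to 0.42, limma adjusted p = 0.486). None of 7 principal cell markers was called between vehicle or irbesartan *db/db* kidneys and *db/m* kidneys other than *Aqp4*, a basolateral water channel, which was 0.64 lower in irbesartan *db/db* than in *db/m*. The summed linear signal of these markers was 1763 to 2014 in *db/m*, 1912 to 2239 in vehicle and 1790 to 1992 in irbesartan *db/db* kidneys, ranges that overlapped. The sum of 5 distal convoluted tubule markers was 3817 to 4371 in *db/m*, 5124 to 5341 in vehicle and 4965 to 5721 in irbesartan *db/db* kidneys. Both *db/db* ranges lay above that of *db/m*. *Calb1* was called higher than in *db/m* in vehicle (0.68) and irbesartan *db/db* kidneys (0.73). *Trpm6* was called higher than in *db/m* in irbesartan *db/db* kidneys alone. The *Trpm6* call was lost without *db/m* replicate 3 or irbesartan replicate 1 or 3 (0.44 to 0.53). The part of either marker list in the *Hsd11b2* values was not tested. *H6pd*, which supplies the cofactor for the *Hsd11b1* enzyme, differed from *db/m* by -0.08 in vehicle and -0.17 in irbesartan *db/db* kidneys and was not called in either (limma adjusted p = 0.823 and 0.498).

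*Hsd17b11* encodes a dehydrogenase of lipid droplets that oxidizes androstanediol to androsterone. It was at 10.11, 10.32 and 10.13 in *db/m*, at 9.44, 9.62 and 9.54 in vehicle *db/db* and at 9.34, 9.61 and 9.27 in irbesartan *db/db* kidneys. Every *db/db* array lay below every *db/m* array, and the irbesartan and vehicle arrays overlapped. It was 1.57-fold lower in vehicle *db/db* than in *db/m* kidneys (log2 difference -0.66, SE 0.11, limma adjusted p = 0.0220) and 1.72-fold lower in irbesartan *db/db* than in *db/m* (log2 difference -0.78, SE 0.11, limma adjusted p = 0.00555). Irbesartan minus vehicle *db/db* was -0.13 (95% interval -0.37 to 0.12, limma adjusted p = 0.688).

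*Akr1c21*, an aldo-keto reductase of mouse kidney that makes epitestosterone from androstenedione, was at 9.64, 9.83 and 9.72 in *db/m* and at 9.81, 9.56 and 8.91 in vehicle *db/db* kidneys. It was at 9.40, 9.47 and 9.56 in irbesartan *db/db* kidneys. The vehicle *db/db* group was the widest of any member in any group (SD 0.46, n = 3), because replicate 3 lay far below the other arrays. The difference from *db/m* was -0.30 in vehicle (95% interval -0.71 to 0.10, limma adjusted p = 0.524) and -0.26 in irbesartan *db/db* kidneys (95% interval -0.66 to 0.15, limma adjusted p = 0.526). Irbesartan minus vehicle *db/db* was 0.05 (95% interval -0.36 to 0.45, limma adjusted p = 0.946). Without *db/db* replicate 3 these values were -0.05 for vehicle minus *db/m* and -0.21 for irbesartan minus vehicle. Irbesartan *db/db* arrays did not overlap with *db/m* arrays for *Akr1c21*, as for 6 of the 7 genes (5 lower, 1 higher), where 23.5% of all genes did not overlap.

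*Esr1* encodes estrogen receptor alpha, a ligand-activated transcription factor that the kidney expresses in both sexes. It was at 7.41, 7.12 and 7.12 in *db/m*, at 6.48, 6.37 and 6.12 in vehicle *db/db* and at 6.34, 6.56 and 6.40 in irbesartan *db/db* kidneys. All 6 *db/db* arrays lay below the *db/m* arrays, and the irbesartan arrays lay within or just above the vehicle range. It was 1.86-fold lower in vehicle *db/db* than in *db/m* kidneys (log2 difference -0.89, SE 0.12, limma adjusted p = 0.00739) and 1.72-fold lower in irbesartan *db/db* than in *db/m* (log2 difference -0.78, SE 0.12, limma adjusted p = 0.00813). Irbesartan minus vehicle *db/db* was 0.11 (95% interval -0.16 to 0.38, limma adjusted p = 0.769).

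*Ghr*, the growth hormone receptor, was at 8.72, 8.61 and 8.29 in *db/m*, at 8.35, 8.30 and 8.48 in vehicle *db/db* and at 8.37, 8.41 and 8.45 in irbesartan *db/db* kidneys. *db/m* replicate 3 was the lowest of all 9 arrays and *db/m* replicates 1 and 2 the highest, so that each group overlapped with each other group. The differences were -0.16 for vehicle *db/db* minus *db/m* (95% interval -0.42 to 0.09, limma adjusted p = 0.593), -0.13 for irbesartan *db/db* minus *db/m* (95% interval -0.38 to 0.12, limma adjusted p = 0.618) and 0.03 for irbesartan minus vehicle *db/db* (95% interval -0.22 to 0.28, limma adjusted p = 0.944). These intervals leave room for decreases of up to 0.42 from *db/m*.

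**Figure D2:**
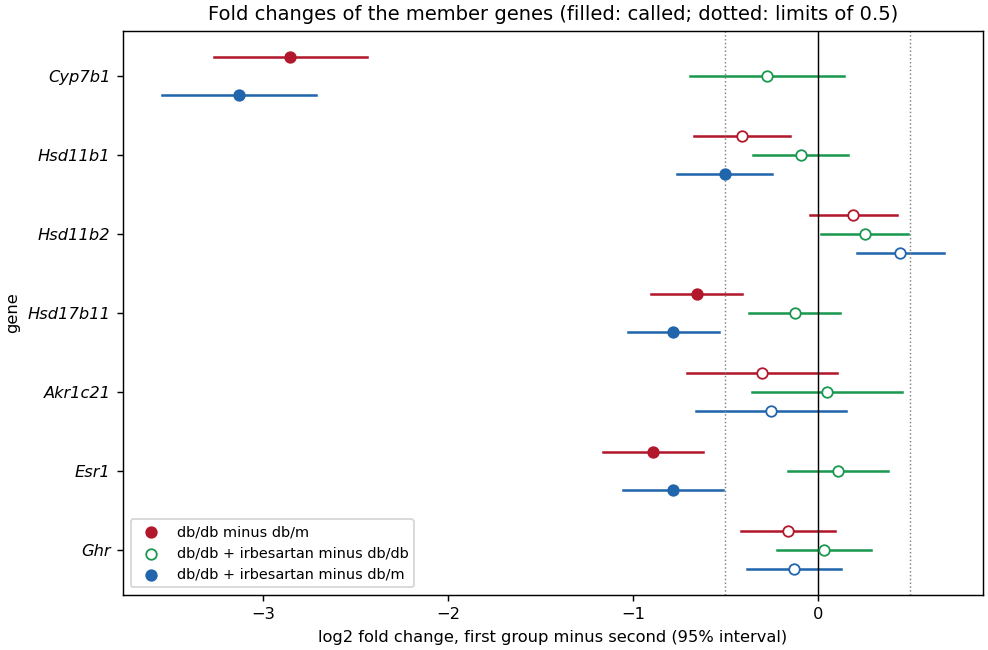
Log2 differences of the 7 genes with 95% intervals from the limma fit, for *db/db* minus *db/m* (red), irbesartan minus vehicle *db/db* (green) and irbesartan *db/db* minus *db/m* (blue); filled points passed both limits and dotted lines mark the fold limit of 0.5. *Cyp7b1* lies at -2.85 and -3.13 against *db/m*, and every irbesartan-minus-vehicle point lies between -0.28 and 0.25.

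Start regions from RefSeq (GRCm38.p6) were held for 7 of the 9 gene names, with 11 starts in all. They are shown for the 3 genes called lower in at least 1 comparison that had one. For *Esr1* only the start that held a match is printed, and its other start held none. Each region shown is the 250 bases before an annotated start, 5′ to 3′ on the gene's strand. Capitals mark a match to TTCNNNGAA, the motif bound by STAT5 and other STAT proteins downstream of the growth hormone and prolactin receptors.

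Esr1, start 2, chr10:4709908-4710157, plus strand: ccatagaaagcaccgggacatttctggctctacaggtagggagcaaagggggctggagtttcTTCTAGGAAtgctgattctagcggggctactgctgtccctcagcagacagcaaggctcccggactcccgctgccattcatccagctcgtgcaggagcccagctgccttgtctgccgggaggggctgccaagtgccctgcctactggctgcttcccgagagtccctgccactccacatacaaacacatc
Hsd17b11, chr5:104021797-104022046, minus strand: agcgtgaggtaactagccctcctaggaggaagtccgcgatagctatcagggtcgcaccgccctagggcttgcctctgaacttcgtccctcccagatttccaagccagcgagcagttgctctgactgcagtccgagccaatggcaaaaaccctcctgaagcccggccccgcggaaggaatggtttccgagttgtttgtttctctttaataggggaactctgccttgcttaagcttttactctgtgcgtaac
Hsd11b1, chr1:193242361-193242610, minus strand: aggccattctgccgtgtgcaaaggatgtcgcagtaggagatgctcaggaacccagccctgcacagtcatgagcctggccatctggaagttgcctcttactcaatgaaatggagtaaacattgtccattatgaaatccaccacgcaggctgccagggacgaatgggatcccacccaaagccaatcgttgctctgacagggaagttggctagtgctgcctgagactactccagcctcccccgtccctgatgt

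The motif began 188 bases before this *Esr1* start. It was found on either strand in 7.02% of 32851 such regions of the mouse genome. Of the 8 other starts of the 9 genes, not printed, a *Prlr* start held 1 match and the other *Esr1* start none. The hormone receptor half-site AGAACA, held by 16.1% of all regions, was found at the same *Prlr* start alone, and the nuclear receptor half-site AGGTCA, held by 14%, at none of the 11. Matches describe these letters in these windows and were not tested as binding sites.

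Over the 9 arrays *Cyp7b1* had Pearson correlations of 0.94 with *Hsd17b11*, 0.93 with *Esr1* and 0.91 with *Hsd11b1*, and after the group means were removed these were 0.07, 0.18 and 0.60. The shared order of the arrays for *Hsd17b11* and *Esr1* was thus largely that of the groups. *Hsd11b2* and *Ghr* had a correlation of -0.66 over the arrays and -0.82 within groups. The spread of both genes was widest in *db/m* kidneys, where replicate 3 was highest for *Hsd11b2* (10.12) and lowest for *Ghr* (8.29). In the irbesartan group the 2 genes rose together from replicate 1 to 3 (10.31, 10.34 and 10.37, and 8.37, 8.41 and 8.45), so the negative value does not describe every group. Among 11083 genes above the median level, the 3 most like *Cyp7b1* over the 9 arrays were *Abhd2*, *Acat1* and *Galns* (correlation 0.99 each), and those most like *Esr1* were *Cpe* (0.99), *Slc22a26* and *Cadm1* (0.98 each). *Slc22a26*, an organic anion transporter family member, was 3.49 lower in vehicle *db/db* than in *db/m* kidneys. *Hsd17b11* was most like *Cpox*, *Igh-VS107* and *Smoc1* (0.97 each), and *Hsd11b2* was most like *Cntfr* (0.98), *Inafm1* and *Agfg2* (0.96 each). *Hsd11b1* was most like *Prex1*, *Hdac8* (0.95 each) and *Hsd17b2* (0.94), the last of them a steroid dehydrogenase that inactivates testosterone and estradiol. *Akr1c21* was most like *Tmem174* (0.95), *Inmt* (0.92) and *Susd5* (0.91), and *Ghr* was most like *Mfap3l* (0.94), *Pdgfd* and *Plaa* (0.89 each). With 9 arrays in 3 groups such correlations are descriptions, and arrays of a group share their condition.

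Other enzymes of steroid interconversion and inactivation differed in both directions between *db/db* and *db/m* kidneys. Of 24 measured among 29 listed, 3 fell, 1 rose and 20 were not called in vehicle *db/db* kidneys (median -0.03, all genes 0.005). *Akr1c14*, a reductase that acts on dihydrotestosterone and progesterone metabolites, was at 8.49, 8.33 and 7.99 in *db/m* and at 6.17, 6.20 and 5.27 in vehicle *db/db* kidneys. The log2 difference was -2.39 (SE 0.22, limma adjusted p = 0.00074). *Hsd17b2* was at 7.96, 7.58 and 7.90 in *db/m* and at 6.24, 6.04 and 6.22 in vehicle *db/db* kidneys, and fell by 1.64 (SE 0.15, limma adjusted p = 0.00074). *Akr1c18*, which inactivates progesterone, fell by 1.97 (SE 0.39, limma adjusted p = 0.0410). Its *db/m* values were 7.39, 5.57 and 5.54, and all *db/db* arrays lay below them. *Cbr1*, a carbonyl reductase with broad substrates, rose by 0.88 (limma adjusted p = 0.144), a call lost without *db/m* replicate 1 or *db/db* replicate 3 (adjusted p = 0.293 to 0.310, differences of 0.59 to 0.72). In irbesartan *db/db* against *db/m* kidneys 4 fell and 3 rose of the 24 (median -0.04), with *Akr1c14* at -2.59, *Akr1c18* at -2.49 and *Hsd17b2* at -2.0. The remaining 4 calls there, *Akr1d1* (-0.55), *Cbr1* (0.71), *Akr1c19* (0.51) and *Akr1c12* (0.50), were each lost in some fits with 1 array left out. These were *db/m* replicate 1 and irbesartan replicates 2 and 3 for *Akr1d1* (-0.51 to -0.38), *db/m* replicates 1 and 2 and any irbesartan array for *Cbr1* (0.54 to 0.78), *db/m* replicate 3 and irbesartan replicate 3 for *Akr1c19* (0.46 to 0.49), and *db/m* replicate 1 and irbesartan replicates 1 and 3 for *Akr1c12* (0.38 to 0.51). Between irbesartan and vehicle *db/db* kidneys 0 of 24 were called (median -0.02, all genes -0.01).

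The *Akr1c* genes stand side by side on chromosome 13, in the RefSeq order *Akr1c14*, *Akr1c18*, *Akr1c13* (not analysed here), *Akr1c19*, *Akr1c12*, *Akr1c6*, *Akr1c20*, *Akr1c21* and, beyond them, *Akr1e1*. The 2 genes that fell in vehicle *db/db* kidneys are next to each other at 1 end, and *Akr1c21* lies at the other end of the *Akr1c* genes. The members of this family are related in sequence, as are those of the *Hsd3b* family, so probe sets may read more than 1 of them and the split between them is uncertain.

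The steroid and bile acid synthesis enzymes held 2 of 22 measured genes (of 26 listed) that rose in vehicle *db/db* against *db/m* kidneys, 0 that fell and 20 that were not called (median -0.01). *Cyp17a1*, which makes androgen precursors, was at 2.86, 3.13 and 3.16 in *db/m* and at 4.09, 3.81 and 4.40 in vehicle *db/db* kidneys, a rise of 1.05 (SE 0.17, limma adjusted p = 0.0154) in a range where the array signal is low. *Hsd3b3*, a kidney form of the enzyme that makes progesterone and androstenedione, was at 7.03, 7.31 and 7.46 in *db/m* and at 8.40, 8.04 and 7.87 in vehicle *db/db* kidneys, a rise of 0.84 (SE 0.15, limma adjusted p = 0.0311). Both rose in irbesartan *db/db* against *db/m* kidneys too, by 0.96 and 1.13, with *Cyp39a1*, an oxysterol hydroxylase, as the other gene of 3 (0.56, median of the list 0.04). The *Cyp39a1* call was lost without *db/m* replicate 3 or irbesartan replicate 1 (0.34 to 0.52). Irbesartan and vehicle *db/db* kidneys differed in 0 of 22 (median 0.06).

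Of 17 steroid receptors and partner proteins measured among 19, 0 were called in vehicle *db/db* against *db/m* kidneys (median 0.08) and 0 between irbesartan and vehicle *db/db* kidneys (median -0.01). The mineralocorticoid receptor gene *Nr3c2* and the glucocorticoid receptor gene *Nr3c1* were 0.23 and 0.24 higher in vehicle *db/db* than in *db/m* kidneys without a call, and *Esr2*, which encodes estrogen receptor beta, was 0.17 lower without a call. *Esrrb* was at 5.35, 5.36 and 5.47 in *db/m* and at 5.71, 5.44 and 5.86 in vehicle *db/db* kidneys. In irbesartan *db/db* kidneys it was at 5.93, 5.97 and 5.71, and it was called in no comparison. *Fkbp5*, a chaperone partner of these receptors that glucocorticoid induces, was the 1 gene that rose in irbesartan *db/db* against *db/m* kidneys (0.71, limma adjusted p = 0.129), a call lost without *db/m* replicate 1 or irbesartan replicate 2 or 3 (0.50 to 0.69). Among 25 of 26 genes of growth hormone and prolactin signaling, 0 were called in vehicle *db/db* against *db/m* kidneys (median -0.02) and 0 with irbesartan in *db/db* kidneys (median -0.02). *Igfbp3*, a carrier of insulin-like growth factors in blood, fell by 0.69 in irbesartan *db/db* against *db/m* kidneys (SE 0.15, limma adjusted p = 0.0348), the 1 call of the 25. *Jak2*, *Stat5b* and *Socs2* differed by 0.22, -0.17 and -0.02 in vehicle *db/db* minus *db/m* kidneys and were not called. *Irs1* was at 6.37, 6.36 and 6.01 in *db/m* and at 6.52, 6.72 and 6.65 in vehicle *db/db* kidneys. In irbesartan *db/db* kidneys it was at 6.62, 6.55 and 6.50, and it was called in no comparison.

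Among genes that aldosterone or glucocorticoid induces, 17 of 18 were measured, and 3 rose and 1 fell in vehicle *db/db* (median 0.20), 4 rose and 0 fell in irbesartan *db/db* (median 0.39), and 1 rose and 0 fell in irbesartan against vehicle *db/db* kidneys (median 0.21). *Sgk1*, the kinase that holds the epithelial sodium channel at the membrane, was at 8.01, 7.87 and 7.52 in *db/m*, at 8.39, 8.25 and 8.94 in vehicle *db/db* and at 8.66, 9.28 and 9.22 in irbesartan *db/db* kidneys. Against *db/m* its rise was 0.72 in vehicle *db/db* (SE 0.21, limma adjusted p = 0.158) and 1.25 in irbesartan *db/db* kidneys (SE 0.21, limma adjusted p = 0.0112). *Scnn1a*, the alpha subunit of that channel, was 0.54 higher in the former (SE 0.14, limma adjusted p = 0.123) and 0.75 higher in the latter (SE 0.14, limma adjusted p = 0.0197). The vehicle *Sgk1* call was lost without *db/m* replicate 3 or *db/db* replicate 3 (0.52 to 0.58), and that of *Scnn1a* without *db/m* replicate 1 or 2 or *db/db* replicate 3 (0.45 to 0.47). *Mt1*, a metallothionein, rose by 0.65 in irbesartan *db/db* against *db/m* kidneys (limma adjusted p = 0.00337). The remaining rise in that comparison was *Fkbp5*, which also stands on the list of steroid receptors and partners and is counted in both. As given above, its call was lost in some fits with 1 array left out. *Zbtb16*, a transcription factor induced by glucocorticoid, fell by 0.76 in vehicle *db/db* against *db/m* (limma adjusted p = 0.124) and rose by 1.17 with irbesartan in *db/db* kidneys (limma adjusted p = 0.0906). Each *Zbtb16* call was lost in 3 of 9 fits that left out 1 array: without *db/m* replicate 3 or *db/db* replicate 1 or 2 for the first (-0.75 to -0.57), and without *db/db* replicate 2 or irbesartan replicate 1 or 3 for the second (0.98 to 1.18). The other call in vehicle *db/db* kidneys was *Per1* (0.63), a clock gene as well, and it was lost without *db/m* replicate 3, any *db/db* vehicle array or irbesartan replicate 3 (0.38 to 0.71).

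Genes of the sex-dimorphic kidney were called against *db/m* kidneys in both the vehicle and the irbesartan group. Of 11 genes known to be higher in male mouse kidney, 4 fell and 0 rose in vehicle *db/db* (median -0.45), and 5 fell and 1 rose in irbesartan *db/db* kidneys (median -0.36). *Slco1a1*, an organic anion transporter of the proximal tubule that androgen induces, was at 8.23, 8.62 and 8.21 in *db/m* and between 1.71 and 2.05 on all 6 *db/db* arrays. It fell by 6.50 in vehicle (limma adjusted p = 6.2e-10) and 6.49 in irbesartan *db/db* kidneys. These *db/db* values lie where the array signal is low, so the size of both falls is uncertain. *Slc7a13*, an amino acid transporter, fell by 1.37, *Cyp2j13* by 1.17 and the androgen-regulated *Kap* by 0.87 in vehicle *db/db* kidneys, and *Odc1*, the first enzyme of polyamine synthesis, fell by 0.60 in irbesartan *db/db* against *db/m* kidneys. *Odc1* differed by -0.45 in vehicle *db/db* minus *db/m* (limma adjusted p = 0.151), below the fold limit, and by -0.15 in irbesartan minus vehicle *db/db* kidneys (limma adjusted p = 0.666). *Cyp4a12b* went the other way and rose by 1.19 in irbesartan *db/db* against *db/m*. *Cyp4a12a*, its near-identical neighbour, was the 1 gene of the list called with irbesartan in *db/db* kidneys (0.81, limma adjusted p = 0.229), a call lost without *db/m* replicate 2 or any 1 of the 6 *db/db* arrays (0.56 to 1.03). Of 4 measured among 5 genes listed as higher in female kidney, 3 rose and 1 fell in vehicle *db/db* (median 0.81) and likewise in irbesartan *db/db* kidneys (median 1.09). *Abcc3*, a bile salt and glucuronide exporter, rose by 1.93, *Cyp4a14*, a fatty acid hydroxylase, by 0.89 and *Slc7a12*, an amino acid transporter, by 0.73 in vehicle *db/db*, and *Slc22a7*, an organic anion transporter, fell by 3.34. The place of *Slc22a7* on the female list is uncertain, since its sex bias in mouse kidney was not checked. Of 8 estrogen receptor targets, 0 were called in vehicle *db/db* against *db/m* kidneys (median 0.09), *Ccnd1* fell by 0.51 with irbesartan in *db/db* kidneys, and *Myc* rose by 0.58 in irbesartan *db/db* against *db/m*. The *Ccnd1* call held only without *db/m* replicate 3 and was lost without any other array (-0.61 to -0.38), and the *Myc* call was lost without *db/m* replicate 1 or 2 or any irbesartan array (0.39 to 0.72).

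**Figure D3:**
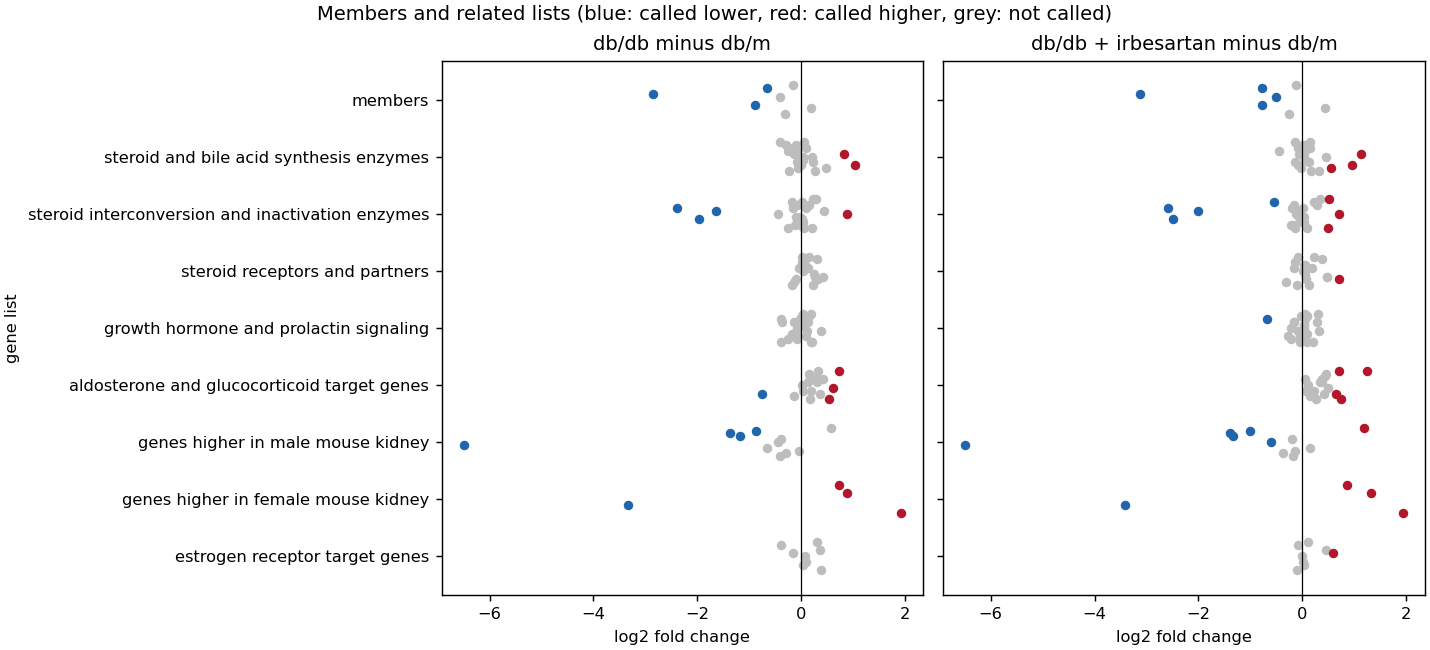
Log2 differences of the members and of 8 related gene lists (1 point per gene; blue called lower, red called higher, grey not called), for vehicle *db/db* minus *db/m* on the left and irbesartan *db/db* minus *db/m* on the right. The 4 genes of the female list were called in both panels, and the farthest points are *Slco1a1* at -6.50 and -6.49 on the male list and *Slc22a7*, whose place on the female list is uncertain, at -3.34 and -3.42.

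Proximal tubule markers were at 8.75 to 12.2 on every array, and the correlation between arrays was 0.984 to 0.994 over all 41345 probe sets. Of 11 proximal tubule markers measured among 12, 1 was called in vehicle *db/db* against *db/m* kidneys, *Slc7a13* (-1.37), and 2 in irbesartan *db/db* against *db/m*, *Slc7a13* (-1.39) and the urate transporter gene *Slc22a12* (-0.69), all lower. *Slc22a12* was at -0.45 in vehicle *db/db* minus *db/m* without a call. The summed signal of the 11 was 23704 to 25383 in *db/m*, 22312 to 24110 in vehicle and 23472 to 23786 in irbesartan *db/db* kidneys. Markers of adrenal cortex, an organ next to the kidney that makes steroids, had summed signals of 54.9 to 62.8 over the 9 arrays, and 0 of 8 were called in any comparison. Of 7 adipocyte markers 0 were called in any comparison, with sums of 565 to 892 in *db/m*, 429 to 950 in vehicle and 426 to 1139 in irbesartan *db/db* kidneys, and 1 array stood above the others in each group. In *db/db* replicate 3 this was *Fabp4* (9.81), whereas *db/m* replicate 2 and irbesartan replicate 2 also stood high in the fat cell genes *Cidec* (5.53 and 6.69, other arrays 3.19 to 3.86) and *Retn* (5.57 and 5.61, other arrays 2.75 to 3.36). *Lep* stood high in irbesartan replicate 2 alone (7.15, other arrays 3.16 to 3.98). Without *db/db* replicate 3 the calls numbered 3, 0 and 4 as before. Without the other 2 arrays, an alternative added after their markers were seen, 4, 0 and 4 of the 7 genes were called in the 3 comparisons, with *Hsd11b1* as the added call in vehicle *db/db* against *db/m* (-0.51) and *Cyp7b1* at -2.99, *Esr1* at -0.94 and *Hsd17b11* at -0.59. Of 6 leukocyte markers, the T cell gene *Cd3e* fell by 0.81 in vehicle and by 0.83 in irbesartan *db/db* against *db/m* kidneys, and *Ptprc* fell by 0.52 in irbesartan *db/db* against *db/m*. The *Ptprc* call was lost without *db/m* replicate 1 or 2 or irbesartan replicate 1 or 3 (-0.50 to -0.38). Leukocyte sums were 195 to 240 in *db/m* and 169 to 230 in vehicle *db/db* kidneys, and 159, 368 and 125 in the 3 irbesartan *db/db* kidneys. The sum of 368 was that of irbesartan replicate 2, the array high in fat cell genes, with *Cd68* at 7.03 (other arrays 4.75 to 5.26). Of 6 liver markers 2 rose in vehicle *db/db* against *db/m* kidneys (median 0.31), *Ttr* by 0.84 and *Apob* by 0.52, and 5 rose in irbesartan *db/db* against *db/m* (median 0.54), by 0.50 to 0.84. The sums of the 6 were 1170 to 1283 in *db/m*, 1738 to 1749 in vehicle and 1820 to 1825 in irbesartan *db/db* kidneys. Most of each sum came from *Apob* (9.47 to 10.24 over the 9 arrays) and *Alb* (8.07 to 9.02). The other liver markers lay at 3.91 to 6.84. Of these calls, *Apob* and *Ttr* in irbesartan *db/db* held in each of 9 fits with 1 array left out, and the other 5 did not. Those in vehicle *db/db* were lost without *db/db* replicate 3 (*Apob* and *Ttr*) or *db/m* replicate 3 (*Apob*), at 0.45 to 0.63. Those in irbesartan *db/db* were lost without *db/m* replicate 1 (*Fgb*, *Alb* and *Apoa1*), *db/m* replicate 2 or irbesartan replicate 2 (*Alb* and *Apoa1*), or irbesartan replicate 1 or 3 (*Alb*), at 0.39 to 0.57. The part of these markers in the steroid enzyme values was not tested.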

How the data were processed

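The authors normalized scans of total kidney RNA with RMA in Affymetrix Expression Console, which left a log2 value for each probe set on each array, used here as deposited. RMA with quantile normalization narrows differences of low signals and removes global shifts. Of 41345 probe sets, 23521 had 1 gene symbol in the platform annotation, 1820 had several and 16004 had none, and only the first were used. The probe set with the highest mean stood for each of 22180 genes, without a filter on low values.

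All 9 arrays were fitted with limma 3.58.1 in R 4.3.3, 1 mean per group, with variances moderated over genes (6 residual degrees of freedom), in place of the one-way analysis of variance of the methods. The thresholds are those of the methods, whose fold change inequality was read as a lower bound. The fit was tested on simulated data.

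The genes and lists were chosen with earlier results of these data known. Lists come from textbook knowledge. By rule, members were named with all probe sets, with the called genes of each list and its 2 largest differences, and 3 genes most like each member. *H6pd*, *Nr3c1*, *Nr3c2*, *Esr2*, *Jak2*, *Stat5b* and *Socs2* were named for their roles after their values were seen. Marker genes stand mostly as sums or calls. Alternatives were other normalizations, filters, weights, thresholds and probe set rules, a replicate block and leaving out arrays.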

Additional observations from a re-analysis of the deposited data

How the results depend on the processing

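Over 22 alternatives *Cyp7b1*, *Hsd17b11* and *Esr1* kept their calls against *db/m*: for vehicle *db/db* the log2 differences ran from -3.05 to -2.72, -0.70 to -0.59 and -0.97 to -0.79. Not every alternative could move these differences. Each gene had 1 probe set, so the probe set rules left them as they were. Leaving out an irbesartan array did so too, and dropping the fold limit could not remove a call. With 1 or 2 arrays left out or another setting, the irbesartan-minus-vehicle difference changed sign for *Hsd11b1* (-0.17 to 0.0087, positive without irbesartan replicate 3), *Akr1c21* (-0.21 to 0.24, negative without *db/db* replicate 3, -0.0066 with array weights and -0.005 with median centring) and *Ghr* (-0.0072 to 0.0812, negative without *db/db* replicate 2, and -0.0221 with median centring), none of them called, and the cause was not tested. *Hsd11b1* lost its call in irbesartan *db/db* against *db/m* under a second quantile normalization (-0.50) and 3 of the left-out arrays, while *Hsd11b2* gained one there with array weights (0.50), without *db/m* replicate 3 (0.56) or without the fold limit, and so did *Hsd11b1* in vehicle *db/db* without the fold limit or *db/m* replicate 2. The labels do not say whether the replicate numbers pair mice. Correlations of deviations from the group means between same-numbered arrays were -0.077 to 0.042. They show no strong shared effect and cannot tell whether mice were paired. With the replicate block 3, 0 and 4 of the 7 genes were called, as without it. No scaling moved the median of all genes by more than 0.07. Detection above background was not assessed, which limits what differences of low signals can show. Such signals include those of *Cyp17a1*, *Akr1c12* and *Akr1c19*, and of *Slco1a1* in *db/db* kidneys.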
